A study of Mus musculus with 20 samples.

Results

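Expression of 9 transporter genes was described in mouse liver: 5 of the Slco family (Slco1a1, Slco1a4, Slco1b2, Slco2a1 and Slco2b1) and 4 of the Abcc family (Abcc2, Abcc3, Abcc4 and Abcc6), out of 19505 named genes on the array. The genes were matched by symbol, and each had 1 probe set. The family was chosen from measured values, because Slco1a1 and Slco1a4 moved in opposite directions in these arrays. These 2 genes are therefore described with their values and standard errors and without a test, while the other 7 are tested.

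The livers came from 20 mice, 5 in each of 4 groups, with 1 Affymetrix array per liver. Fed mice ate freely. Fasted mice were kept singly on wire floors for 48 h with no food, and all mice had water. The genotypes are named WT and Mcl1(L-/-), the latter called Mcl1KO here, in which a floxed Mcl1 gene (F/F) was removed with the virus AAV-LP1-Cre, whose LP1 promoter is active in hepatocytes. Whether the WT mice were floxed or received a virus is not stated, nor are the age and sex of the mice. An effect of the virus and one of the loss of Mcl1 cannot be told apart.

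Hepatocytes take up bile acids, bilirubin, steroid conjugates and many drugs from portal blood, conjugate some of them, and pass them into bile or back into blood. Slco genes encode the organic anion transporting polypeptides, which carry such molecules into the cell. Abcc genes encode ATP-driven exporters: Abcc2 works at the bile canaliculus, Abcc3 and Abcc4 at the blood side, and Abcc6 releases ATP, from which the mineralisation inhibitor pyrophosphate is formed. In mice Slco1a1 is known as a male-predominant gene that depends on growth hormone.

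Slco1b2, Slco1a4 and Slco1a1 lie in this order on chromosome 6, in a run of Slco1 genes. The promoters of these 3 are shown because genes so close together had different levels in the fast. The sequences are those of RefSeq for GRCm38.p6, each with 250 bases before and 50 after the annotated start, written 5′ to 3′ on the strand of the gene. Slco1a1 is on the minus strand (chr6:141946913-141947212), as is Slco1a4 (chr6:141856171-141856470), and Slco1b2 is on the plus strand (chr6:141629268-141629567). Capitals mark matches, on either strand, to AGGTCA (the nuclear receptor hexamer), TATAAA, TTCNNNGAA (the STAT5 type), TGACNNNGC (the antioxidant response element) and GTTAAT (an HNF1 core motif).

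Slco1a1: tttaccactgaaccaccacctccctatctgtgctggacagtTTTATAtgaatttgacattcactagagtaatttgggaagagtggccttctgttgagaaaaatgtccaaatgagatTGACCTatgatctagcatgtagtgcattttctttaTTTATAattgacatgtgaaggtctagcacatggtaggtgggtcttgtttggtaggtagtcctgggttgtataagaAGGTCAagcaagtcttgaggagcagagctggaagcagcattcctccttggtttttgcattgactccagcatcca

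Slco1a4: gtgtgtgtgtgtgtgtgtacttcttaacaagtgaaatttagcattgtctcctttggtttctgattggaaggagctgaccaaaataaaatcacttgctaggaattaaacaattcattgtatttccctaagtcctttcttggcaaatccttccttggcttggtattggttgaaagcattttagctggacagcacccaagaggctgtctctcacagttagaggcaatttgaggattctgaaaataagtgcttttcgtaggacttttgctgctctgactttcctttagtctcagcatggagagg

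Slco1b2: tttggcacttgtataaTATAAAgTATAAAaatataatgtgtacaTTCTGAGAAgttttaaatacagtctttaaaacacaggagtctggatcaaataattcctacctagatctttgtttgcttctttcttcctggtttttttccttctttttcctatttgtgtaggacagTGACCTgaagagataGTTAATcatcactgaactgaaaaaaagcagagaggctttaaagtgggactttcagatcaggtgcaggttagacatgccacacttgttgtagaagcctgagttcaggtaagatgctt

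Positions are those of a match's first base, counted from the annotated start, with bases before it negative. The Slco1a1 window held AGGTCA at -24 and its reverse complement at -134, with the reverse complement of TATAAA at -99 and -209. No match to any of the 5 motifs was found in the Slco1a4 window. The Slco1b2 window held TTCNNNGAA at -206, the reverse complement of AGGTCA at -81, GTTAAT at -66, and TATAAA at -234 and -227. No marked matches of different motifs overlapped. Among the 32851 promoters of the table, AGGTCA occurred in 16.3%, TATAAA in 13.6%, TGACNNNGC in 12.4%, TTCNNNGAA in 8.3% and GTTAAT in 7.1%, Promoters were matched for 7 of the 9 genes. A match shows letters in a window and not binding.

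Signals are log2 values, in which a difference of 1 is a 2-fold change. Array medians lay between 3.36 and 3.47. Mcl1 itself was lower in all Mcl1KO livers, at 39.5% of WT with food and 45.4% in the fast (limma adjusted p = 5.07e-07 and 4.47e-06). In a principal component analysis of all probe sets, fasted Mcl1KO replicates 3 and 4 lay at 18.3 and 27 on the first component, where the other 3 fasted Mcl1KO livers lay at 42.1 to 46.8 and fasted WT livers at 6.61 to 18.4. Replicate 3 was also alone among fasted Mcl1KO livers in lying above 0 on the second component (5.4, against -22.8 to -9.27). Results that change without it are given both ways.

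The tissue label was borne out by 11 measured hepatocyte markers. Their signals were summed on the unlogged scale, and the log2 of this sum was 15.2 to 15.3 in every group. Sums of other markers are given in the same way, and the brightest genes weigh most in them. Of the 6 measured lymphocyte markers, each had a mean below 4 in every group, and so did at least 5 of 6 cholangiocyte markers. Kupffer cell markers summed to 7.97 to 8.30 in fasted WT livers and to 8.43 to 9.42 over the other 3 groups, and between fasted genotypes 3 of the 8 were higher in Mcl1KO. Stellate cell markers summed to 10.4 to 10.9 in fasted Mcl1KO livers against 9.61 to 10.2 elsewhere. Of those 8, Dcn was called higher on fasting in Mcl1KO, while Reln and Col3a1 were called lower, and the median log2 difference was -0.25. The part of these cells in the results below was not tested. In whole liver, fewer cells of a type and less RNA per cell cannot be told apart.

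Slco1a1, which takes up bile acids and steroid conjugates, was far lower in fasted livers of both genotypes. Fed WT livers (replicates 1 to 5, here and below) gave 10.07, 10.15, 10.10, 10.13 and 10.14, and fed Mcl1KO livers 9.83, 9.65, 10.11, 10.002 and 10.02. In the fast the WT livers gave 7.70, 4.74, 6.24, 6.14 and 7.67, and the Mcl1KO livers 6.28, 5.97, 6.93, 4.34 and 6.99. All 10 fasted livers lay below all 10 fed livers, with a gap of 2.37 within WT and 2.66 within Mcl1KO. The fed signals were tight (SD 0.03 in WT and 0.18 in Mcl1KO, n = 5) and the fasted ones wide (SD 1.24 and 1.08). The common standard error of 0.44 therefore overstates the uncertainty between fed genotypes. It understates the uncertainty of each comparison that includes fasted livers. The signal of fasted livers was 8.14% of fed in WT (log2 difference -3.62, 12.3-fold lower) and 7.09% in Mcl1KO (log2 -3.82, 14.1-fold lower). Group means ran from fed WT (10.12) through fed Mcl1KO (9.92) and fasted WT (6.50) to fasted Mcl1KO (6.10). Neighbours in that order overlapped within each feeding state.

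Slco1a4, a paralog with overlapping substrates, was higher in the fast. Fed WT livers gave 6.85, 6.62, 8.02, 7.67 and 7.84, and fasted WT livers 8.98, 9.19, 9.44, 9.17 and 8.89. The fed Mcl1KO signals were 6.60, 7.53, 7.37, 7.61 and 7.52, against 9.93, 9.78, 9.35, 9.57 and 9.41 in the fast. Fed and fasted livers did not overlap in either genotype, with gaps of 0.87 and 1.74. The difference was 3.32-fold in WT (log2 1.73, SE 0.23) and 4.87-fold in Mcl1KO (log2 2.28, SE 0.23). Fasted Mcl1KO livers had the highest mean (9.61), next to fasted WT (9.13), fed WT (7.40) and fed Mcl1KO (7.32), and the first 2 of these overlapped, as did the last 2. For this gene the spread was in the fed livers, where WT replicates 1 and 2 and Mcl1KO replicate 1 lay below 7. The livers with the lowest Slco1a1, fasted WT replicate 2 and fasted Mcl1KO replicate 4, had Slco1a4 signals inside the range of their groups (9.19 and 9.57).

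Slco1b2, the main uptake carrier for unconjugated bile acids and many toxins in mouse hepatocytes, fell in fasted Mcl1KO livers. Fed WT livers gave 10.12, 10.32, 10.40, 10.30 and 10.35, and fasted WT livers 9.93, 9.77, 9.37, 9.46 and 9.86. In Mcl1KO the fed signals were 10.30, 9.95, 10.39, 10.41 and 10.58, and the fasted ones 9.05, 8.51, 10.10, 9.39 and 8.60. Fed and fasted WT livers did not overlap, by 0.19. In Mcl1KO only fasted replicate 3 reached the fed range. The fall in Mcl1KO was 2.29-fold (log2 -1.20, SE 0.21, limma adjusted p = 0.000231), and log2 -1.44 without fasted replicate 3. In WT the difference was log2 -0.62 (SE 0.21) and did not pass the test (adjusted p = 0.0828, and 0.00534 to 0.203 over its alternatives). It was called when only the WT arrays were fitted and when dim probe sets were left out (adjusted p = 0.00534 and 0.0431).

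Slco2b1, which carries steroid sulfates and drugs, fell 1.34-fold in fasted Mcl1KO livers (log2 -0.43, SE 0.14, adjusted p = 0.0369). Fed Mcl1KO livers gave 7.55, 7.29, 7.54, 7.47 and 7.34, and fasted Mcl1KO livers 7.22, 6.41, 7.26, 7.06 and 7.12. The groups were separated by 0.03, and replicate 2 was lower than the other fasted Mcl1KO livers. This call was lost without fed Mcl1KO replicate 1, 3 or 4 or fasted Mcl1KO replicate 2 or 4 (adjusted p up to 0.125, with log2 -0.27 when fasted replicate 2 was left out), with median centring (0.0705) and with only the Mcl1KO arrays fitted (0.0888). WT livers measured 7.44 to 7.80 fed and 7.17 to 7.67 fasted (log2 -0.15, SE 0.14, adjusted p = 0.67).

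Slco2a1, the prostaglandin transporter, did not pass the test in either genotype. Its signal ranged from 5.93 to 6.42 in fed WT, 6.10 to 7.17 in fasted WT, 5.39 to 6.16 in fed Mcl1KO and 5.94 to 6.20 in fasted Mcl1KO livers. The groups all overlapped with their neighbours in the order of means. Fasting differences were 0.26 in WT and 0.23 in Mcl1KO (SE 0.17, adjusted p = 0.474 and 0.454). The WT value was 0.07 without fasted WT replicate 4, the liver at 7.17, and the Mcl1KO value 0.12 without fed Mcl1KO replicate 1. Endothelial markers, of cells in which this gene is also known, summed to 8.51 to 9.39 over the 4 groups, and their part was not tested.

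**Figure D1:**
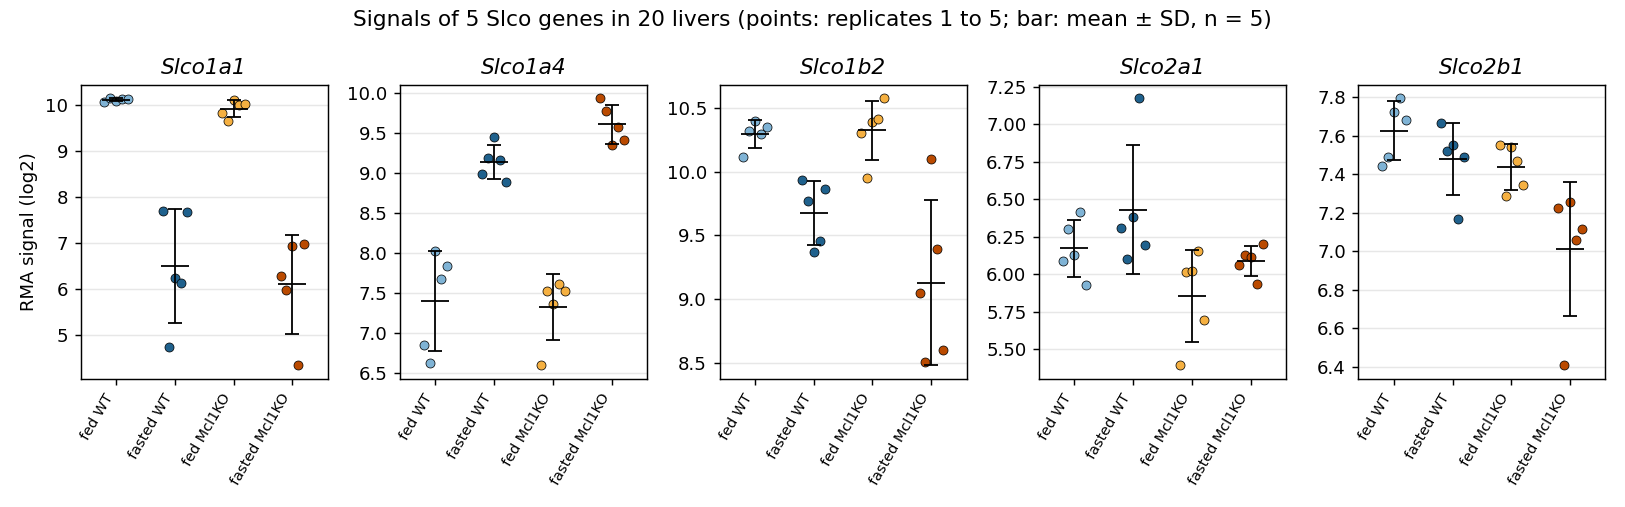
RMA log2 signal (vertical axis) of the 5 Slco genes in each liver, with points for replicates 1 to 5 of each group and bars for the mean ± SD (n = 5). The vertical axes differ between panels. Slco1a1 lies between 9.65 and 10.15 in fed and between 4.34 and 7.70 in fasted livers, while Slco1a4 is higher in every fasted liver than in every fed liver.

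Abcc2, the canalicular exporter of bilirubin glucuronides and glutathione conjugates, fell in fasted Mcl1KO livers. Its signals there were 9.72, 9.53, 10.28, 10.05 and 9.47, against 10.28, 10.36, 10.56, 10.37 and 10.35 with food. WT livers gave 10.09, 10.30, 10.36, 10.15 and 10.26 fed, and 10.39, 10.15, 10.14, 10.19 and 10.13 fasted. The 2 WT groups overlapped almost wholly, and in Mcl1KO only fasted replicate 3 reached the lowest fed liver. The fall in Mcl1KO was 1.49-fold (log2 -0.57, SE 0.13, adjusted p = 0.00233). The WT difference was -0.03 with a 95% interval of -0.29 to 0.23 (adjusted p = 0.944). The promoter of Abcc2 (RefSeq, chromosome 19) held TGACNNNGC at -98 and AGGTCA at -49.

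Abcc6, the exporter needed for hepatic ATP release, fell 1.58-fold in fasted Mcl1KO livers (log2 -0.66, SE 0.12, adjusted p = 0.000419). Fed Mcl1KO livers gave 6.44, 6.63, 6.77, 6.80 and 6.61, and fasted Mcl1KO livers 6.21, 5.84, 6.26, 5.76 and 5.90. The groups did not overlap, with a gap of 0.18. Fed WT livers gave 6.21, 6.43, 6.70, 6.62 and 6.35, and fasted WT livers 6.11, 6.39, 6.07, 6.37 and 6.38, which overlapped (log2 -0.20, SE 0.12, adjusted p = 0.434). The order of means was fed Mcl1KO (6.65), fed WT (6.46), fasted WT (6.26) and fasted Mcl1KO (5.99), with overlap between each pair of neighbours.

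Abcc3, the blood-side exporter of glucuronides, measured 9.40 to 9.96 in fed WT, 9.93 to 10.24 in fasted WT, 9.42 to 9.94 in fed Mcl1KO and 9.73 to 10.21 in fasted Mcl1KO livers. Its fasting differences were 0.26 in WT and 0.31 in Mcl1KO (SE 0.13, adjusted p = 0.32 and 0.141), positive in both but short of the threshold. Abcc4, the blood-side exporter of bile acids and cyclic nucleotides, was near the median of the arrays, with group means of 3.45 to 3.63. Over all livers it ranged from 3.03 to 4.58. Its differences were -0.05 and 0.17 (SE 0.23, adjusted p = 0.951 and 0.753), and at so low a signal the array resolves little.

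**Figure D2:**
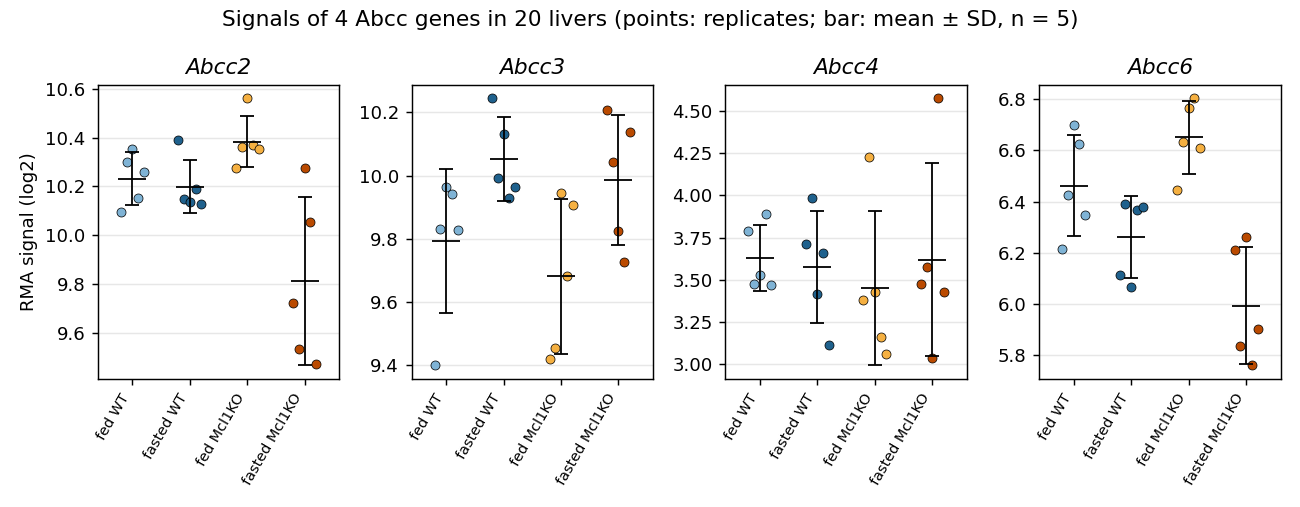
RMA log2 signal (vertical axis) of the 4 Abcc genes in each liver, with points for the replicates of each group and bars for the mean ± SD (n = 5). Vertical axes differ between panels. Abcc2 and Abcc6 are lowest in fasted Mcl1KO livers, with means of 9.81 and 5.99.

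Counted over the 7 tested genes, fasting in WT gave 0 calls by limma, where 6.79% of all 22206 probe sets were called. An unadjusted p under 0.05 was found for 1 of the 7 and for 3849 of the 22206 probe sets. In Mcl1KO, 4 of the 7 fell (Slco1b2, Slco2b1, Abcc2 and Abcc6) and 0 rose, where 14.4% of all probe sets were called in either direction. A fit without dim probe sets (group means all under 5) left out Abcc4. It called 4 of the remaining tested genes in Mcl1KO and 1 in WT. Of the 7125 kept probe sets it called 3051 in Mcl1KO and 1679 in WT. The share was thus higher among brighter probe sets, and the count of 4 is not read as particular to these genes. The count of calls in Mcl1KO was 3 or 4 when any 1 Mcl1KO array was left out. The median log2 difference of the 7 was -0.05 in WT and -0.43 in Mcl1KO, beside 0.01 and -0.0015 over all probe sets. Fed and fasted livers did not overlap for 3 of the 9 genes in WT (7.36% of all probe sets) and for 4 in Mcl1KO (10.2%). Slco1a1 and Slco1a4 are among both, and nothing is read from those 2.

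Whether fasting acted differently in the genotypes was tested as the interaction, Mcl1KO minus WT. Limma called 0 of the 7 genes, beside 0.135% of all probe sets called. At an unadjusted p under 0.05 were 2477 of the 22206 probe sets and 2 of the 7 genes. Those 2 were Abcc2 (log2 -0.54, SE 0.18, adjusted p = 0.223) and Abcc6 (log2 -0.46, SE 0.17, adjusted p = 0.288). Without fasted Mcl1KO replicate 3 the Abcc2 interaction was called (log2 -0.66, adjusted p = 0.0362), in a fit that called 331 of the 22206 probe sets, against 30 with that liver. For Slco1b2 it was -0.58 (SE 0.30, adjusted p = 0.476) and for Slco2b1 -0.28 (SE 0.19, adjusted p = 0.626). The falls in Mcl1KO are not shown to differ from the responses of WT. The estimates for Slco1a1 and Slco1a4, not tested, were -0.20 (SE 0.62) and 0.55 (SE 0.32), and the former turned positive without fasted WT replicate 1 or 5 or fasted Mcl1KO replicate 4 (0.10, 0.09 and 0.24).

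With food, the genotypes overlapped in each of the 9 genes. Limma called 0 of the 7, with 0 at an unadjusted p under 0.05, beside 0.036% of all probe sets called, while 1.57% of all probe sets had separate fed groups. The differences of the 7 lay between -0.32 for Slco2a1 and 0.19 for Abcc6. Their 95% intervals reached -0.66 at the low end (Slco2a1 and Abcc4) and 0.46 at the high end (Slco1b2), so differences of that size are not excluded. Slco1a1 measured -0.19 (SE 0.44) and Slco1a4 -0.08 (SE 0.23), which turned positive without fed WT replicate 3 or 5 or fed Mcl1KO replicate 1 (up to 0.11).

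In the fast, Mcl1KO livers had less Slco2b1 than WT livers, by 1.38-fold (log2 -0.47, SE 0.14, adjusted p = 0.0473). This was the only call among the 7, where 4.99% of all probe sets were called, and 4 of the 7 had an unadjusted p under 0.05. The Slco2b1 call was lost without any of the 10 fasted livers except WT replicate 4 and Mcl1KO replicate 3 (adjusted p up to 0.14), with median centring (0.0823) and with only the fasted arrays fitted (0.154). Without fasted Mcl1KO replicate 3 there were 3 calls, Slco2b1, Slco1b2 (log2 -0.79, adjusted p = 0.00375) and Abcc2 (log2 -0.50, adjusted p = 0.00765), against log2 -0.55 and -0.39 with it (adjusted p = 0.141 and 0.0795). Calls over all probe sets went from 1109 to 1707 when that liver was left out. Abcc2 was also called with trend and robust moderation (adjusted p = 0.0302) and without dim probe sets (0.0351). Fasted WT and Mcl1KO livers overlapped for all 9 genes, where 3.9% of all probe sets did not. This comparison shares its arrays with both fasting comparisons. Slco1a4 measured 0.47 higher (SE 0.23) and Slco1a1 0.39 lower (SE 0.44, too small for its wide fasted signals). The Slco1a1 difference ranged from -0.83 without fasted WT replicate 2 to 0.05 without fasted Mcl1KO replicate 4.

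**Figure D3:**
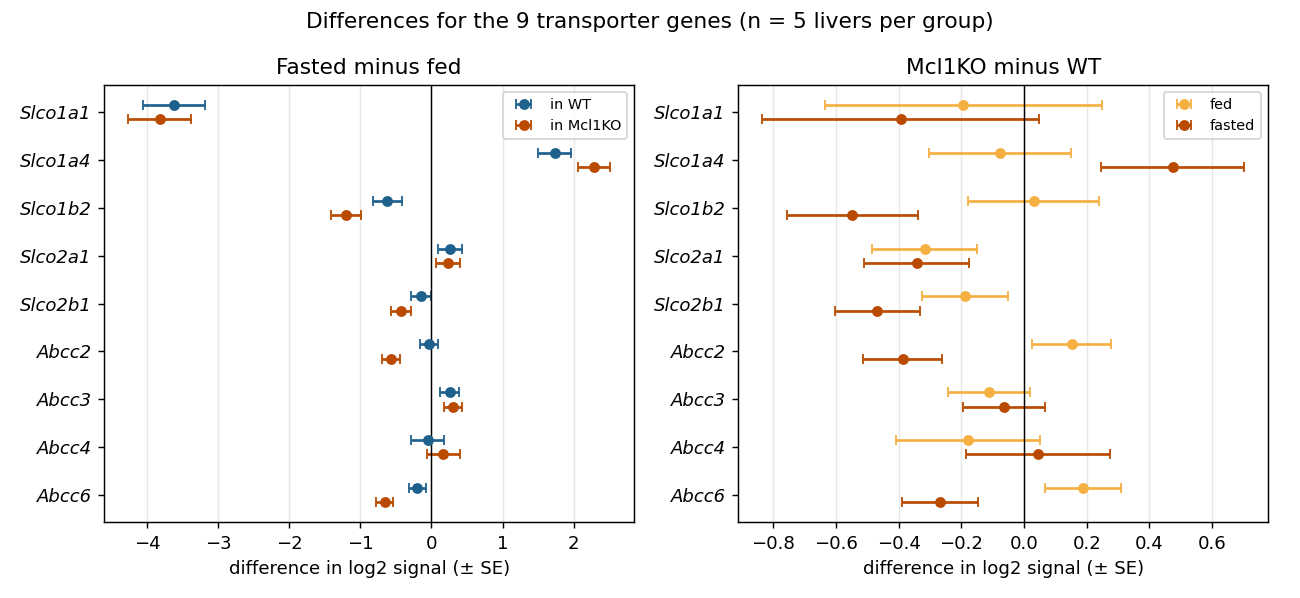
Differences in log2 signal (horizontal axis) of the 9 genes, with bars of ± 1 SE from the fit to 20 arrays: fasted minus fed in each genotype at left, Mcl1KO minus WT in each feeding state at right. Slco1a1 lies near -3.62 and -3.82 and Slco1a4 at 1.73 and 2.28 at left, while all differences at right lie between -0.55 and 0.47.

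Along chromosome 6 the Slco1 run holds Slco1c1, Slco1b2, Gm5724, Slco1a4, Slco1a1, Gm6614, Slco1a6 and Slco1a5 in the RefSeq order, with Pde3a before and Iapp next by start. All but Gm5724 had a named probe set here. Slco1a1 and Slco1a4 were not tested, and Slco1b2 was called in Mcl1KO only. Of the other genes, Slco1a5 alone was called, in both genotypes. The Slco1a5 signal rose 1.74-fold in WT (log2 0.80, SE 0.13, adjusted p = 0.000232) and 1.71-fold in Mcl1KO (adjusted p = 0.000142). Its group means of 1.96 to 2.79 were below the median signal of every array. Slco1a genes are close paralogs. The positions of the probes were not used here, and whether those of Slco1a5 also bind Slco1a4 transcript was not tested. Slco1c1, Gm6614 and Slco1a6 had means of 1.91 to 2.63 with differences of -0.23 to 0.19, and Pde3a had 0.02 and -0.20.

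**Figure D4:**
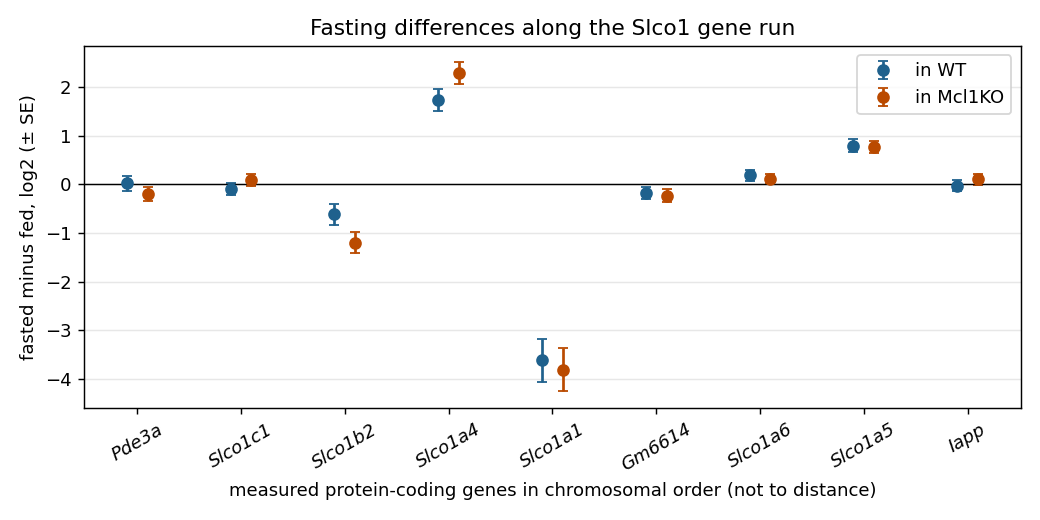
Fasted minus fed difference in log2 signal (vertical axis, ± SE) of the 9 measured protein-coding genes in and beside the Slco1 run, in chromosomal order and not to distance, in WT and Mcl1KO. Slco1a4 (1.73 and 2.28) and Slco1a1 (-3.62 and -3.82) are direct neighbours among protein-coding genes and lie on opposite sides of 0.

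By likeness of profile, measured as the root-mean-square difference of log2 signals over the 20 arrays after centring each gene on its own mean, the nearest of 18539 other genes to Slco1a1 were Cyp1a2 (0.70), Thrsp (0.79) and Nudt7 (0.86). These encode an aryl hydrocarbon-metabolising cytochrome, a regulator of lipogenesis and a peroxisomal coenzyme A diphosphatase. The standard deviation of Slco1a1 itself over the arrays was 2.06. Cyp1a2 measured log2 -3.10 in WT and -4.14 in Mcl1KO, against -3.62 and -3.82 for Slco1a1. Nearest to Slco1a4 were Slc16a5 (0.29), a monocarboxylate transporter family gene, Crat (0.38), the carnitine acetyltransferase gene, and Cyp4a32 (0.41), a fatty acid hydroxylase gene, beside a standard deviation of 1.11. Crat measured log2 1.77 and 2.29, near the 1.73 and 2.28 of Slco1a4. Among the 9 genes, Abcc2 and Abcc6 were nearest to each other (0.21), and Slco2b1 and Slco1b2 were each nearest to Abcc2 (0.23 and 0.37). Likeness here is mostly shared group means, and was not tested.

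**Figure D5:**
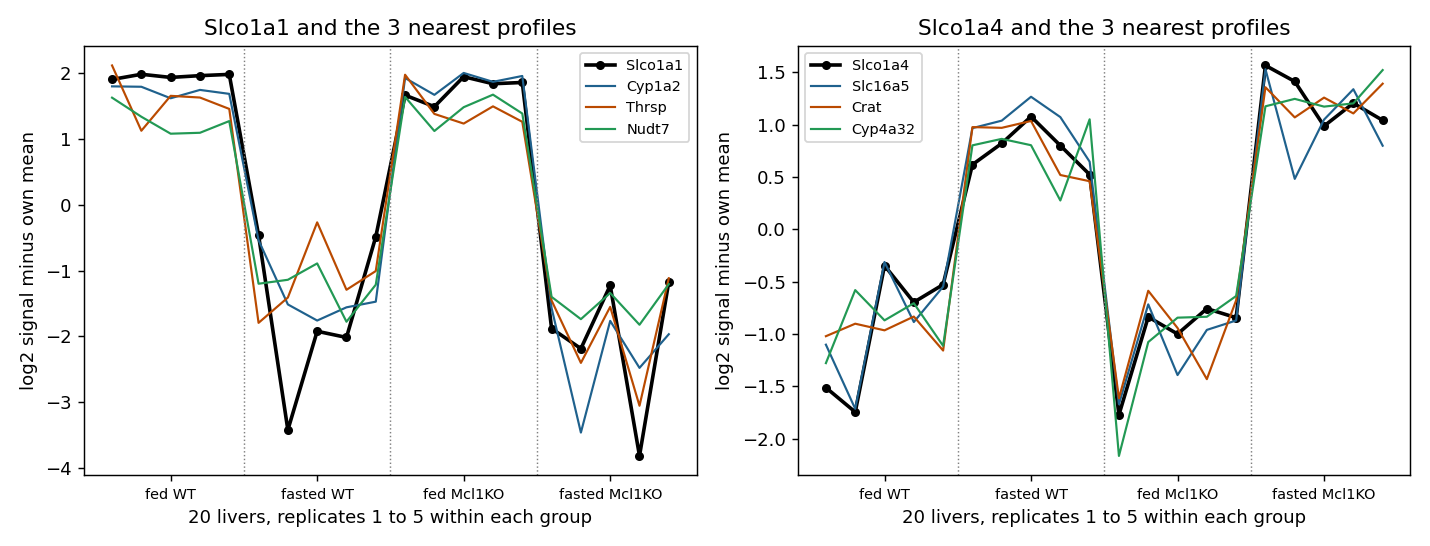
Log2 signal minus the gene's own mean over 20 arrays (vertical axis) for each liver (horizontal axis, replicates 1 to 5 of each group between dotted lines), for Slco1a1 and Slco1a4 (black) and the 3 genes with the nearest profile. The root-mean-square differences are 0.70 to 0.86 for the genes beside Slco1a1 and 0.29 to 0.41 for those beside Slco1a4.

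Of 9 other measured Slco genes, Slco1a5 was the 1 called in each genotype, and the remaining 8 were not. Shares called over all probe sets were 6.79% for fasting in WT, 14.4% in Mcl1KO and 4.99% between fasted genotypes. Of 6 other Abcc genes, Abcc10 rose 1.49-fold in fasted WT livers (log2 0.58, SE 0.11, adjusted p = 0.00127) and 0 were called for fasting in Mcl1KO, with 1 at an unadjusted p under 0.05. Abcc9, a subunit gene of ATP-sensitive potassium channels, was 1.88-fold higher in fasted Mcl1KO than in fasted WT livers (adjusted p = 0.00575). In that comparison Abcc10 was lower (log2 -0.39, SE 0.11, adjusted p = 0.0378), a call that was lost without fasted WT replicate 1, 2, 3 or 4 or fasted Mcl1KO replicate 2, 4 or 5 (adjusted p up to 0.106). Of the 8 stellate cell markers, Dcn alone was called there (log2 0.76). The median difference of the 8 was 0.16, beside -0.017 over all probe sets, and the part of these cells was not tested.

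Among 13 other bile acid, lipid and drug transporters of hepatocytes, 1 rose and 2 fell on fasting in WT, and 1 rose and 5 fell in Mcl1KO, with median differences of -0.34 and -0.46. Medians over all probe sets were 0.01 and -0.0015, with 6.79% called in WT and 14.4% in Mcl1KO. Without dim probe sets, 1679 and 3051 of 7125 were called. These shares belong beside the counts of each list below. Abcb4, the phospholipid floppase of the canaliculus, rose 1.51-fold in WT and 1.75-fold in Mcl1KO (adjusted p = 0.00877 and 0.000203). Abcb11, the bile salt export pump, fell in Mcl1KO (log2 -1.32, SE 0.29, adjusted p = 0.00248), with signals of 5.01 to 7.61 against 7.93 to 8.25 with food. In WT its difference was log2 -0.85 and not called (adjusted p = 0.0948), though fasted signals of 6.82 to 7.46 lay below the fed 7.99 to 8.32. Its interaction was not called (adjusted p = 0.728). Conjugating enzymes, which make substrates of Abcc exporters, had 2 of 10 measured genes higher and 6 lower in fasted WT and 2 higher and 7 lower in fasted Mcl1KO livers. The glucuronosyltransferase gene Ugt2b1 fell 3.39-fold and 6.92-fold (adjusted p = 3.33e-05 and 2.24e-08), while the sulfotransferase gene Sult1d1 rose 2.55-fold and 2.86-fold (adjusted p = 7.14e-07 and 5.9e-08).

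Transcription regulators known for hepatic transporters had 1 of 20 higher and 2 lower for fasting in WT, and 2 higher and 6 lower in Mcl1KO. In WT these were Cux2 (log2 0.78), Cebpa (-0.58) and Ghr (-0.55). In Mcl1KO they were Cux2 (1.42), Hnf4a (0.48), Bcl6 (-1.60), Nr0b2 (-1.56), Ghr (-1.34), Cebpa (-0.97), Ahr (-0.78) and Ppara (-0.72). The Cux2 call in WT and the Bcl6 call in Mcl1KO were lost when certain single arrays were left out (adjusted p up to 0.0729 and 0.105). Stat5a and Stat5b were not called in either genotype. Cux2 is counted again below among genes more active in females. For this list and those of NRF2, CAR and PXR targets, the share over all probe sets was 6.79% in WT and 14.4% in Mcl1KO. Without dim probe sets it was 1679 and 3051 of 7125, and no list is read as called beyond these shares. Ghr, which encodes the growth hormone receptor, fell on fasting in WT (log2 -0.55, SE 0.13, adjusted p = 0.00896) and in Mcl1KO (log2 -1.34, adjusted p = 1.13e-07). It was 1.71-fold lower in fasted Mcl1KO than in fasted WT livers (adjusted p = 0.002), and its interaction was not called (adjusted p = 0.0828). Between fasted genotypes Cebpa was the only other of the 20 called (log2 -0.59, adjusted p = 0.0152), beside 4.99% of all probe sets. Nr0b2, the bile acid-induced repressor gene, fell 2.94-fold in Mcl1KO (adjusted p = 0.000281). In WT its difference was log2 -0.74 and not called (adjusted p = 0.131), nor was its interaction (adjusted p = 0.444). Of 14 targets of the oxidative stress factor NRF2, 0 rose and 5 fell in WT, and 2 rose and 4 fell in Mcl1KO. Of 8 targets of the xenobiotic receptors CAR and PXR, 1 rose and 2 fell in WT, and 2 rose and 3 fell in Mcl1KO. Cyp2b10, the classic CAR target, rose 6.79-fold in Mcl1KO (adjusted p = 0.000105) and measured log2 0.43 in WT (SE 0.45, adjusted p = 0.719). Its interaction was not called (log2 2.34, SE 0.64, adjusted p = 0.123). Cyp2c55 was lower by 4.13-fold in fasted WT livers and by 5.76-fold in fasted Mcl1KO livers (adjusted p = 2.19e-05 and 5.21e-07), and the carboxylesterase gene Ces2a fell 1.91-fold and 2.68-fold (adjusted p = 0.00394 and 1.78e-05).

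Genes known to be more active in male mouse liver, as Slco1a1 is, had 7 of 15 measured members lower and 0 higher in fasted WT and 9 lower and 0 higher in fasted Mcl1KO livers, with medians of -0.43 and -0.91. The largest of these differences was that of Hsd3b5 (log2 -5.56 and -5.64, SE 0.18, adjusted p = 6.6e-16 and 4.86e-16). Ugt2b1 is counted both in this list and among the conjugating enzymes. Over all probe sets, 6.79% were called in WT and 14.4% in Mcl1KO, in either direction, with medians of 0.01 and -0.0015. Genes more active in females had 5 of 19 higher and 1 lower in WT and 6 higher and 2 lower in Mcl1KO, with medians of 0.06 and 0.05. Cyp17a1 rose 12.4-fold in WT and 22.8-fold in Mcl1KO (adjusted p = 2.4e-05 and 5.44e-07). Cyp39a1, an oxysterol hydroxylase gene, rose 3.09-fold in WT and 4.65-fold in Mcl1KO (adjusted p = 6.17e-07 and 2.86e-09). In contrast, Cyp2c69 fell in both (log2 -0.94 and -0.77, adjusted p = 0.000121 and 0.000475). The sex of the mice was not used.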

How the data were processed

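Deposited values are log2 signals of 22206 probe sets, made by the authors with RMA and Partek 7.0, per the submitters' processing notes. RMA corrects background, quantile-normalises and summarises probes, so a shift shared by most genes would not show. The log base is not stated; log2 is assumed. Signals ran from 1.34 to 12.56. Per the labels' protocols, Trizol RNA was made into cDNA with the WT PLUS kit. The number of arrays limits the precision.

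Probe sets were named by platform symbol. Group means over all 20 arrays were compared with limma 3.58.1 (R 4.3.3; lmFit, eBayes), and p-values were adjusted by Benjamini-Hochberg over all probe sets (called under 0.05). SE assume 1 spread in all groups. The fit was tested on simulated data. The members, gene lists and tests were chosen with earlier results of these data known. From the lists, the plan was to name at most the 2 called genes with the largest difference in each direction. Beyond it, every regulator called for fasting is named, with Stat5a and Stat5b, and Cyp39a1 is given for WT beside Mcl1KO. Markers named as called were chosen after their values were seen. Promoters are from RefSeq. Figures used matplotlib 3.10.9 (Python 3.11.15). Alternatives were quantile normalisation, median centring, trend and robust moderation, array weights and removal of probe sets with group means all under 5. Others were fits on the compared groups, the replicate number as a block, and leaving out each array of the compared groups.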

Additional observations from a re-analysis of the deposited data

Results flagged for a closer look

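In 5 of the 36 combinations of a gene and a group, 1 array stood apart from the other 4 of its group (a gap of over 0.71 of the range). Chance marks about 1 in 20 such groups. Fed Mcl1KO replicate 1 had a Slco1a4 signal of 6.60, and the other 4 had 7.37 to 7.61. Slco2a1 was 7.17 in fasted WT replicate 4 against 6.10 to 6.38. Slco2b1 was 6.41 in fasted Mcl1KO replicate 2 against 7.06 to 7.26, and the calls of this gene were lost without that liver. Abcc2 was 10.39 in fasted WT replicate 1 against 10.13 to 10.19, and Abcc3 was 9.40 in fed WT replicate 1 against 9.83 to 9.96. These 5 values came from 5 different livers.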

How the results depend on the processing

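The falls of Slco1b2, Abcc2 and Abcc6 in fasted Mcl1KO livers kept their calls in all alternatives run (adjusted p up to 0.00514, 0.0206 and 0.00294). For members called in the fasted genotype comparison (1 as reported), the count was 0 with median centring or only the compared groups, 2 with trend and robust moderation or the dim filter, and 0 to 3 leaving out 1 array. For fasting in WT it was 1 with the dim filter or only the compared groups, and for the interaction 0 to 1 leaving out 1 array. Probe sets called with food (8) were 15 with trend and robust moderation, 26 with array weights and 7 to 16 leaving out 1 array. Those of the interaction (30) were 55 with array weights, 112 with the dim filter and 9 to 331 leaving out 1 array. Those of the fasted genotype comparison (1109) were 399 with only the compared groups and 497 to 1707 leaving out 1 array. The replicate number as a block left 1375 probe sets for fasting in WT, 3045 in Mcl1KO and 20 for the interaction, and changed no call of a member. Replicate numbers showed no pairing: of 20 same-numbered pairs of arrays, 1 had deviations correlated above 0.1 (range -0.14 to 0.17). Among the 7 tested genes, signs turned for differences that were not called; the differences of Slco1a1 and Slco1a4 that turned are given with their values above. Abcc2 for fasting in WT became 0.0019 and the Abcc3 interaction -0.018 with quantile normalisation, and the Slco2a1 interaction 0.014 with median centring and 0.042 with array weights. Leaving out 1 array gave -0.16 to 0.062 for Abcc4 in WT, -0.071 to 0.36 in Mcl1KO, -0.20 to 0.19 between fasted genotypes and -0.017 to 0.42 for its interaction. It gave -0.033 to 0.12 for Slco1b2 between fed genotypes, -0.14 to 0.16 for the Slco2a1 interaction, -0.019 to 0.14 for the Abcc3 interaction and -0.12 to 0.000388 for Abcc3 between fasted genotypes. The dim filter left out Abcc4. The causes were not tested. The fasting differences of Slco1a1 and Slco1a4 ranged from -4.04 to -3.18 and from 1.54 to 2.35. Their fed and fasted groups did not overlap, so leaving out 1 array could not turn the sign. Nothing is read from the kept direction, which chose the family. Each member had 1 probe set, so the alternative of another probe set was not run.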
